A study of Mus musculus with 16 samples.

Results

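The mitochondrial fatty acid oxidation enzymes described here were 10 genes, taken by symbol from the 55487 genes of the deposited table. They were Cpt1a, Cpt2, Acadvl, Acadl, Acadm, Acads, Hadha, Hadhb, Hadh and Etfdh. All 10 were found in the table, and all 10 were among the 11839 genes with a mean of at least 1 TPM over the libraries, the genes that were tested. TPM, a measure of transcript abundance, divides the reads of a gene by its exon length and scales each library to the same total.

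Livers came from 16 male C57BL6/J mice, with 4 mice in each of 4 groups and 1 library per mouse. By the sample records, all mice were 10 weeks old when they were first fed a 60 kcal% high-fat diet, which lasted 8 weeks. The paper gives another age, feeding time and last day. The test diets were also high in fat, and held either standard protein (SP) or high protein (HP). Each mouse had a daily subcutaneous injection of vehicle or of G108 at 2.5 nmol/kg for 22 days. G108 is a long-acting peptide agonist of the glucagon receptor. Livers were taken on day 25 after a 4 h fast. The vehicle SP, G108 SP, vehicle HP and G108 HP groups are named by treatment and diet. All mice, vehicle included, were obese males on a high-fat diet, so no lean mice, females or chow diet entered a comparison. The study asked what low doses of G108 do in obese mice with and without extra dietary protein. For the 10 enzymes the comparisons were G108 against vehicle on each diet, HP against SP with each treatment, and the interaction of G108 and diet.

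Fatty acids are burned in the mitochondrial matrix, and long-chain fatty acids cannot cross the inner membrane on their own. Carnitine palmitoyltransferases hand the acyl group to carnitine outside and back to coenzyme A inside. Each turn of beta-oxidation then removes an acetyl unit through a dehydrogenation, a hydration, another dehydrogenation and a thiolysis, with separate enzymes for long, medium and short chains. In the fasted liver this pathway supplies acetyl-CoA for ketone bodies and energy for gluconeogenesis. Glucagon is known to promote it, among other ways by lowering malonyl-CoA, the inhibitor of CPT1.

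Promoter windows of 300 bases, with 250 before and 50 after the RefSeq transcription start, were available for all 10 genes on GRCm38.p6. The windows are shown because the 10 genes varied together over the mice. AGGTCA is the hexamer bound by many nuclear receptors, among them PPARα and ERRα, both known regulators of these genes. It was searched on both strands and was found in 3 of the 10 windows, those of Cpt1a, Acadm and Acadvl, and in 16.3% of all 32851 windows. In these 3 windows, printed 5′ to 3′ on the strand of the gene, capitals mark the hexamer or its reverse complement. The window of Cpt1a is chr19:3323051-3323350 on the plus strand, that of Acadm is chr3:153944594-153944893 on the minus strand, and that of Acadvl is chr11:70015379-70015678 on the minus strand.
Cpt1a: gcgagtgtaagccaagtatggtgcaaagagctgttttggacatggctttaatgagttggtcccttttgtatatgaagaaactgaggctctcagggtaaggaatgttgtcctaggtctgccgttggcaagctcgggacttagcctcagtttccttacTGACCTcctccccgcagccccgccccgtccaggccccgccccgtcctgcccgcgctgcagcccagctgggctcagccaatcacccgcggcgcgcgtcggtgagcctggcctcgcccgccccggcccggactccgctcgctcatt
Acadm: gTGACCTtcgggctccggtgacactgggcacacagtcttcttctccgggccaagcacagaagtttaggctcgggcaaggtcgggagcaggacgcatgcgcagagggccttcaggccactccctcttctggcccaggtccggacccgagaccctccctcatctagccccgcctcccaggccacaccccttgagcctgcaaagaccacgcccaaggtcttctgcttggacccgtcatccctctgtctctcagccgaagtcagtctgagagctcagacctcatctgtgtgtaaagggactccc
Acadvl: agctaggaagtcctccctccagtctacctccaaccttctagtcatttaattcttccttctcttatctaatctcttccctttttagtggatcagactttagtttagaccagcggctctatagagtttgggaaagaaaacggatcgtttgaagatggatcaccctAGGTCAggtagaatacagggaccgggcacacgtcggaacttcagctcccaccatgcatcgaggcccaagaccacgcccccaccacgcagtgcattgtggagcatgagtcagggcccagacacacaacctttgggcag

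Hadha and Hadhb lie head to head on chromosome 5, with RefSeq starts 273 bases apart on opposite strands. Their windows share 228 bases. Here the window of Hadhb, chr5:30155003-30155302 on the plus strand, is shown with the shared bases in capitals.
Hadhb: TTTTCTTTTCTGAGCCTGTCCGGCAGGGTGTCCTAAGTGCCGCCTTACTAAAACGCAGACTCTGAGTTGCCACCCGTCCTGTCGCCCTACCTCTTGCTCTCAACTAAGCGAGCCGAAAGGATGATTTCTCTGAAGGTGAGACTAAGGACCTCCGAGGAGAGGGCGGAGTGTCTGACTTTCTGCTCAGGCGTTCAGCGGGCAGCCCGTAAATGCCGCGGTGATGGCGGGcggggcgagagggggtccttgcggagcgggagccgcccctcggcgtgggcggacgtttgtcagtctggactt

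Other motifs were searched in the same way on both strands. The direct repeat of the hexamer with 1 base between the copies was in 0 of the 10 windows and in 0.0396% of all windows. The cAMP response element TGACGTCA was in 0 of 10 and in 1.79% of all. Its core TGACG, which every full element also holds, was in the windows of Etfdh and Acadm and in 20.8% of all. The GC box GGGCGG was in 8 of 10 windows and in 35.7% of all. The only match in the Hadha window lies in the bases shared with the Hadhb window, so that site is counted for both. A match is a description of the letters in these windows, not a binding site.

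Some features of the libraries bear on every value of the 10 enzymes. Assigned reads, recovered from the steps of low TPM values, were between 27.8 and 45.03 M per library, and each enzyme had between 702 and 10870 reads in each library. The 22 Mup genes, which encode abundant secreted urinary proteins, took 42.3 to 49.0% of TPM in vehicle SP and 17.5 to 22.4% in G108 SP. They took 35.2 to 44.6% in vehicle HP and 18.0 to 29.3% in G108 HP. TPM of a library have a fixed total, and the median of all tested genes was itself 0.60 higher on the log2 scale in G108 SP than in vehicle SP. Each comparison is also given with median-of-ratios scaling. This divides each library by a factor that puts the typical gene at a common level. Transcripts of the 37 genes of the mitochondrial genome took 13.8 to 21.02% of TPM in 13 libraries, 24.0% in vehicle SP mouse 4, 27.4% in G108 HP mouse 2 and 37.3% in G108 HP mouse 3. These 3 libraries stand apart, and each comparison of the 10 enzymes is given with and without them. The paper describes mitochondrial transcripts as raised cooperatively by G108 and added dietary protein. Leaving out G108 HP mice 2 and 3 may therefore select mice by a response to treatment. In these mice such a response and a feature of the library cannot be told apart here. Vehicle SP mouse 4 received neither G108 nor added protein. The 7 hepatocyte markers were present in every library, and their sum was 14475 to 28743 TPM in vehicle SP, 21142 to 28080 in vehicle HP, 27885 to 42181 in G108 SP and 17131 to 29430 in G108 HP. Summed markers of Kupffer cells were 25.2 to 96.6 TPM over the libraries, those of endothelial cells 11.7 to 23.1, of stellate cells 6.04 to 18.0, of cholangiocytes 0.440 to 2.02 and of red blood cells 586 to 2092. Markers of exocrine pancreas summed to 4.63 to 13.2 TPM, those of skeletal muscle to at most 1.41 and those of adipocytes to at most 0.244. Of the 4 pancreas markers only 1 averaged at least 1 TPM, and in each vehicle group 3 were at 0 in every mouse. The part of these cells in the results was not tested. In whole liver, fewer cells of a type and less RNA per cell cannot be told apart.

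Acadvl, the very-long-chain acyl-CoA dehydrogenase, was the most abundant of the 10 in every group and averaged 112 TPM over the 16 mice. Acadl, the long-chain acyl-CoA dehydrogenase, came next in every group at 74.3 TPM. Acads, Cpt2 and Acadm averaged 51.3, 49.2 and 46.9 TPM and exchanged places between groups. Hadh at 33.7 TPM, Cpt1a at 30.5, Hadha at 23.1, Hadhb at 17.5 and Etfdh at 14.2 followed in that order in all 4 groups. Hadh and Cpt1a were not separated in G108 SP, where only 2 of 4 mice had more Hadh than Cpt1a. In each of the 16 mice Acadvl exceeded Acadl. Ranges of most neighbours in this order overlapped within a group. Levels are per length of all annotated exons of a gene, 8730 bases for Hadha, 7505 for Etfdh, 2686 for Acadvl and 2005 for Acadl. Whether the liver transcripts span these lengths was not tested, so the order of levels between genes depends on the annotation.

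**Figure D1:**
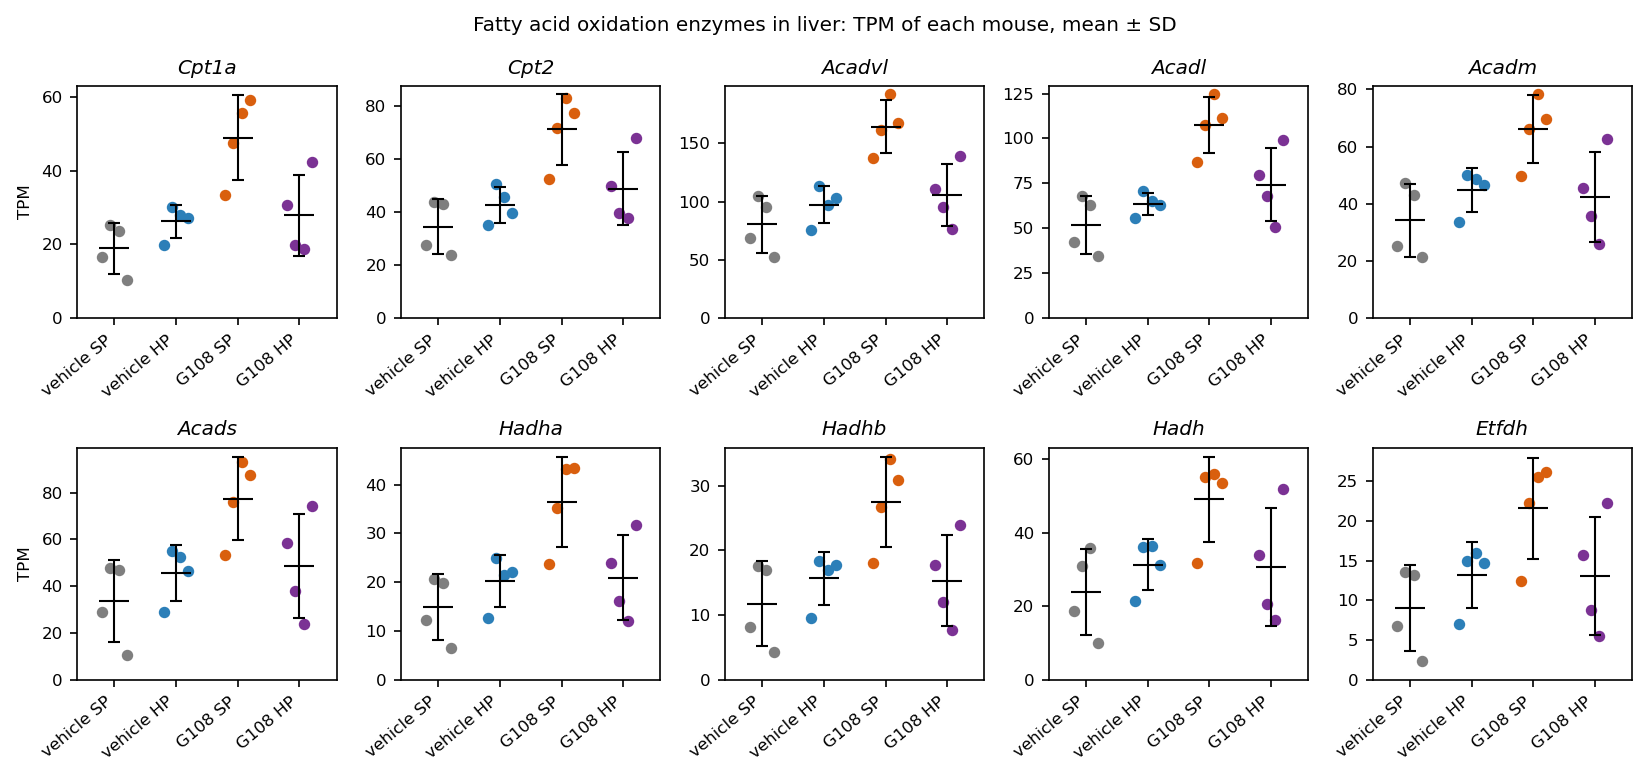
TPM of each of the 10 enzymes (vertical axis) in each mouse (points) of the 4 groups, with the group mean and SD as bars. G108 SP has the highest mean in all 10 panels, and the points of G108 HP are widely spread, for Cpt1a from 18.8 to 42.4 TPM.

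Cpt1a, at chr19:3322334-3385733 on the plus strand (ENSMUSG00000024900), encodes the liver form of the outer carnitine palmitoyltransferase and is the rate-controlling entry step. It stood at 16.6, 25.2, 23.6 and 10.3 TPM in mice 1 to 4 of vehicle SP, and at 33.4, 47.5, 55.7 and 59.3 TPM in those of G108 SP. The lowest G108 SP mouse was thus above the highest vehicle SP mouse. On HP it stood at 19.9, 30.1, 27.9 and 27.1 TPM with vehicle and at 30.6, 19.8, 18.8 and 42.4 TPM with G108. The G108 HP mice lay on both sides of the vehicle HP mice.

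Cpt2, at chr4:107903981-107923610 on the minus strand (ENSMUSG00000028607), encodes the inner carnitine palmitoyltransferase, which returns the acyl group to coenzyme A. Its values in vehicle SP were 27.5, 43.6, 42.9 and 23.6 TPM, and in G108 SP 52.3, 71.6, 82.8 and 77.4 TPM. Again the groups did not overlap. Vehicle HP mice had 34.9, 50.4, 45.5 and 39.4 TPM and G108 HP mice 49.9, 39.6, 37.8 and 67.7 TPM, with overlap. Of the 10 enzymes, Cpt2 had the narrowest range over the 16 mice, 3.50-fold from the lowest to the highest.

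Among the acyl-CoA dehydrogenases, Acadvl at chr11:70010183-70015411 on the minus strand (ENSMUSG00000018574) had 68.9, 105, 95.8 and 52.2 TPM in vehicle SP and 137, 161, 192 and 167 TPM in G108 SP. In vehicle HP it had 75.6, 114, 97.3 and 103 TPM and in G108 HP 111, 95.6, 76.2 and 139 TPM. All G108 SP mice were above all vehicle SP mice, while on HP the groups overlapped. Acadvl shares 2119 bases with Dvl2 on the opposite strand (mean 37.1 TPM), and whether counting used the strand is not given in the sources used here, so reads in the shared bases cannot be told apart.

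Acadl, at chr1:66830839-66863277 on the minus strand (ENSMUSG00000026003), ranged from 34.5 to 68.0 TPM in vehicle SP, from 55.9 to 70.8 in vehicle HP, from 87.1 to 125 in G108 SP and from 50.5 to 99.0 in G108 HP. Acadm, at chr3:153922357-153944632 on the minus strand (ENSMUSG00000062908), encodes the medium-chain enzyme and ranged from 21.5 to 47.2 TPM, 33.5 to 50.2, 49.9 to 78.4 and 26.0 to 62.7 in the same order of groups. For both genes G108 SP stood clear of vehicle SP, and G108 HP reached both below and above vehicle HP. Acads, the short-chain enzyme at chr5:115110299-115119346 on the minus strand (ENSMUSG00000029545), had 29.0, 47.7, 46.7 and 10.7 TPM in vehicle SP, and 53.3, 75.8, 93.1 and 87.6 TPM in G108 SP. Its values were 28.7, 55.0, 52.3 and 46.5 TPM in vehicle HP and 58.4, 37.9, 23.9 and 74.3 TPM in G108 HP. Vehicle SP mouse 4 and G108 HP mouse 3, both among the libraries rich in mitochondrial transcripts, had the lowest Acads of their groups.

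Hadha and Hadhb encode the α and β subunits of the mitochondrial trifunctional protein, which carries out the later steps for long chains. Hadha, at chr5:30118304-30155162 on the minus strand (ENSMUSG00000025745), had 12.3, 20.7, 19.9 and 6.46 TPM in vehicle SP, 12.7, 24.9, 21.4 and 22.0 in vehicle HP, 23.7, 35.3, 43.2 and 43.4 in G108 SP, and 23.9, 16.1, 11.9 and 31.8 in G108 HP. Hadhb, at chr5:30155248-30184593 on the plus strand (ENSMUSG00000059447), had 8.07, 17.6, 16.9 and 4.29 TPM in vehicle SP, 9.51, 18.4, 17.0 and 17.7 in vehicle HP, 18.1, 26.6, 34.2 and 30.8 in G108 SP, and 17.8, 11.9, 7.70 and 23.8 in G108 HP. Both subunits ran in parallel: the ratio of Hadha to Hadhb stayed between 1.18 and 1.55 in all 16 mice. Their Pearson r over the 16 libraries was 0.992 on TPM, the highest of the 45 pairs of enzymes, and 0.982 after median-of-ratios scaling.

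Hadh, at chr3:131233419-131272101 on the minus strand (ENSMUSG00000027984), encodes the soluble hydroxyacyl-CoA dehydrogenase for shorter chains. It ranged from 10.1 to 35.8 TPM in vehicle SP, 21.4 to 36.5 in vehicle HP, 31.7 to 55.9 in G108 SP and 16.2 to 52.0 in G108 HP. G108 SP mouse 1 at 31.7 TPM lay below the highest vehicle SP mouse, so these groups overlapped. Etfdh, at chr3:79603788-79629500 on the minus strand (ENSMUSG00000027809), encodes the oxidoreductase that passes electrons from the acyl-CoA dehydrogenases to ubiquinone. It had 6.72, 13.6, 13.2 and 2.37 TPM in vehicle SP and 12.4, 22.3, 25.6 and 26.2 TPM in G108 SP, with overlap through G108 SP mouse 1. On HP it had 6.96, 15.001, 15.9 and 14.8 TPM with vehicle and 15.7, 8.83, 5.52 and 22.3 TPM with G108. Etfdh had the widest range of the 10 enzymes over the 16 mice, 11.1-fold on TPM and 5.44-fold after median-of-ratios scaling.

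On the SP diet all 10 enzymes rose with G108 on the TPM scale. The differences were 0.99 (Acadm) to 1.37 (Cpt1a) on log2(TPM + 1), with a median of 1.21, beside a median of 0.60 over all tested genes. Many tested genes are low, and this scale understates their changes. Over the 5360 genes with a mean of at least 5 TPM the median was 0.71, and 4427 of them were called higher. In limma's moderated test with Benjamini-Hochberg adjustment over the 11839 genes, all 10 passed an adjusted p of 0.05, with values from 0.00164 to 0.0158. That count has to be read against the background, since 77.0% of all tested genes were called higher in the same comparison. Values of G108 SP and vehicle SP did not overlap for 8 of the 10 enzymes, and 56.0% of all tested genes were higher without overlap.

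Cpt1a rose 2.58-fold on the log2(TPM + 1) scale, from 18.9 ± 6.86 to 49.0 ± 11.5 TPM (SD, n = 4; log2 difference 1.37, SE 0.29, limma adjusted p = 0.00172). Cpt2 rose 2.07-fold, from 34.4 ± 10.3 to 71.0 ± 13.3 TPM (limma adjusted p = 0.00202). The 4 acyl-CoA dehydrogenases rose by 1.07 (SE 0.23, Acadvl), 1.08 (SE 0.23, Acadl), 0.99 (SE 0.28, Acadm) and 1.35 (SE 0.42, Acads). The subunits of the trifunctional protein rose by 1.32 (SE 0.35, Hadha) and 1.30 (SE 0.39, Hadhb). Hadh rose by 1.12 (SE 0.38, limma adjusted p = 0.0150) and Etfdh by 1.35 (SE 0.46, limma adjusted p = 0.0158), the least certain of the 10. Without vehicle SP mouse 4, the mouse with the lowest value of all 16 for each enzyme, 8 of the 10 passed and the median difference was 0.90. That fit called 8593 of 11894 tested genes higher, and the median over all tested genes was 0.55.

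With median-of-ratios scaling, 0 of the 10 passed in limma. All 10 estimates still lay above 0, from 0.24 (Acadm) to 0.66 (Etfdh), with a median of 0.49 beside 0.00 over all tested genes. Adjusted p in limma ranged from 0.113 (Cpt1a) to 0.486 (Hadh), while 1.29% of all tested genes were called higher. At an unadjusted p under 0.05 there were 5 enzymes, Cpt1a, Cpt2, Acadvl, Acadl and Hadha, against 9.13% of all tested genes that were higher at that level. Scaled values of Cpt1a were 24.3, 26.1, 26.8 and 14.6 in vehicle SP and 28.7, 36.2, 36.3 and 40.8 in G108 SP. They did not overlap for Cpt1a, Acadvl and Acadl, and 4.70% of all tested genes were higher without overlap. The 95% interval of the scaled difference was 0.21 to 1.06 for Cpt1a and -0.18 to 1.49 for Etfdh. Leaving out vehicle SP mouse 4 took the scaled median to 0.21. Without all 3 libraries rich in mitochondrial transcripts the scaled differences were 0.10 to 0.44, with a median of 0.21 and 0 called. The TPM differences were then 0.78 to 1.12, with a median of 0.90 and 10 called. Over all tested genes the medians were 0.00 scaled and 0.55 on TPM, where 8881 of 11955 genes were called higher.

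**Figure D2:**
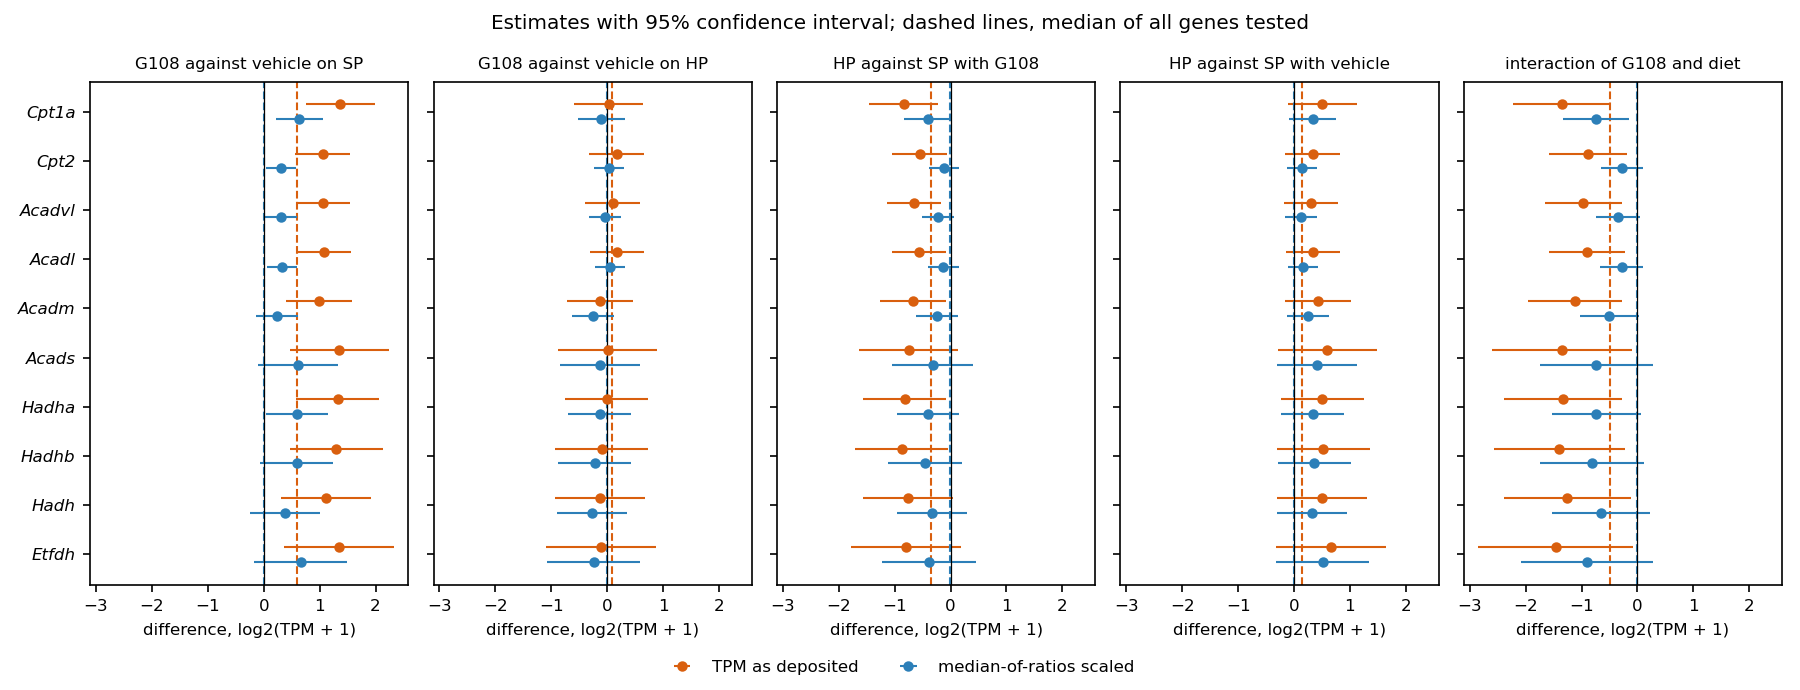
Estimated difference on log2(TPM + 1) (horizontal axis) with its 95% confidence interval for the 10 enzymes (rows) in 5 comparisons (panels), on TPM as deposited (orange) and after median-of-ratios scaling (blue), with dashed lines at the median of all 11839 tested genes. In the SP panel all orange points lie between 0.99 and 1.37, right of the orange line at 0.60, and all blue points between 0.24 and 0.66.

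On the HP diet 0 of the 10 enzymes passed the same test of G108 against vehicle. Differences were from -0.14 (Hadh) to 0.18 (Acadl) with a median of 0.00, beside 0.09 over all tested genes. Limma's adjusted p ran from 0.883 to 1.00, and 0 of the 10 had an unadjusted p under 0.05. Of all tested genes 0.819% were called higher and 0.296% lower. Median-of-ratios scaling gave -0.27 to 0.05 with 0 enzymes called, where 0.617% of all tested genes were called higher and 0.591% lower. The intervals were wide. For Cpt1a (26.2 ± 4.43 and 27.9 ± 11.04 TPM; SD, n = 4) the 95% interval was -0.59 to 0.64, and for Etfdh it was -1.09 to 0.87. Without the 3 libraries rich in mitochondrial transcripts, of which 2 are G108 HP mice, the differences were 0.27 to 0.56, again with 0 called. Their median was 0.46 beside 0.23 over all tested genes. With scaling as well the differences were -0.01 to 0.29, with a median of 0.18 beside 0.01. That comparison rests on 2 G108 HP mice.

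With G108, the enzymes were lower on HP than on SP by estimate in all 10 cases, and 0 of the 10 passed. The differences ranged from -0.87 (Hadhb) to -0.55 (Cpt2), with a median of -0.76 beside -0.35 over all tested genes, and limma's adjusted p lay between 0.0770 and 0.166. At an unadjusted p under 0.05 there were 7 enzymes, all but Acads, Hadh and Etfdh, and 44.6% of all tested genes. Called lower were 0% of all tested genes. On TPM, G108 HP and G108 SP overlapped for every enzyme, although 20.5% of all tested genes were lower in G108 HP without overlap. After median-of-ratios scaling only Acadvl was lower without overlap, at 110, 102, 87.6 and 114 in G108 HP against 118, 123, 126 and 115 in G108 SP, with 2.15% of all tested genes doing so. Scaled differences were -0.46 to -0.12, with limma adjusted p of 0.859 to 0.864 and 0 enzymes at an unadjusted p under 0.05. These TPM calls depended on single mice: 8 enzymes passed without G108 HP mouse 4, 3 without G108 SP mouse 1 and 2 without vehicle SP mouse 4. The same omissions gave 5050, 3006 and 1728 calls among all genes. Without the 3 libraries rich in mitochondrial transcripts, of which G108 HP mice 2 and 3 enter this comparison, the differences shrank to between -0.40 and -0.15 on TPM. Their median was then -0.27 beside -0.23 over all tested genes, with 0 called. With scaling as well they were -0.12 to 0.13, with a median of 0.01.

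With vehicle, estimates for HP against SP were above 0 for all 10 enzymes, from 0.31 (Acadvl) to 0.66 (Etfdh), and the median was 0.50 beside 0.14 over all tested genes. None passed in limma (adjusted p = 0.727 for each), and 0 had an unadjusted p under 0.05. Of all tested genes 0% were called higher and 2.74% were higher at an unadjusted p under 0.05. Scaled estimates were 0.12 to 0.51, with limma adjusted p of 0.837 to 0.840. Vehicle SP mouse 4 lay below every vehicle HP mouse for all 10 enzymes. Without the 3 libraries rich in mitochondrial transcripts the TPM estimates were 0.12 to 0.26 and the scaled ones had a median of 0.05. Over all tested genes the medians were then 0.10 on TPM and 0.00 scaled.

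The interaction asks whether the difference made by G108 was itself different between the diets. Its estimate, the G108 difference on HP minus that on SP, was below 0 for all 10 enzymes and ranged from -1.46 (Etfdh) to -0.88 (Cpt2). The median was -1.29 beside -0.49 over all tested genes and -0.61 over those with a mean of at least 5 TPM. All 10 had an unadjusted p under 0.05 and 0 of 10 passed after adjustment, with limma adjusted p from 0.0799 to 0.0941. Among all tested genes 47.7% were below 0 at an unadjusted p under 0.05 and 0% were called. For Cpt1a the estimate was -1.34 (95% interval -2.22 to -0.47, limma adjusted p = 0.0799). For Hadhb it was -1.40 (95% interval -2.57 to -0.22, limma adjusted p = 0.0810).

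After median-of-ratios scaling the interaction was -0.90 to -0.27 with a median of -0.69 beside -0.01 over all tested genes. Limma's adjusted p was then between 0.580 and 0.582, and only Cpt1a kept an unadjusted p under 0.05 (-0.74, 95% interval -1.33 to -0.14), as did 3.47% of all tested genes below 0. On TPM 10 enzymes passed without G108 HP mouse 4, 7 without G108 SP mouse 1 and 7 without vehicle SP mouse 2, where 5188, 3972 and 3461 of all genes were called. Without the 3 libraries rich in mitochondrial transcripts the interaction shrank to between -0.66 and -0.34 on TPM, with 0 called and a lowest limma adjusted p of 0.368. The median was then -0.48 beside -0.33 over all tested genes. With both changes the interaction was -0.26 to 0.07 with a median of -0.06 beside 0.00. The comparisons share their groups, so that the values of vehicle SP mouse 4 and of G108 HP mice 2 and 3 enter several of them.

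Summed over the 10 enzymes, TPM were 255, 420, 400 and 176 in vehicle SP and 299, 465, 428 and 411 in vehicle HP. G108 SP mice had 499, 669, 786 and 727, and G108 HP mice 466, 354, 275 and 616. The lowest sums of vehicle SP and of G108 HP were in libraries rich in mitochondrial transcripts. After median-of-ratios scaling the 3 such libraries had 250, 376 and 316, while the other 13 had between 357 and 513. The part of this library feature in the results on HP was not tested, and the values with and without the 3 libraries are those given above.

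**Figure D3:**
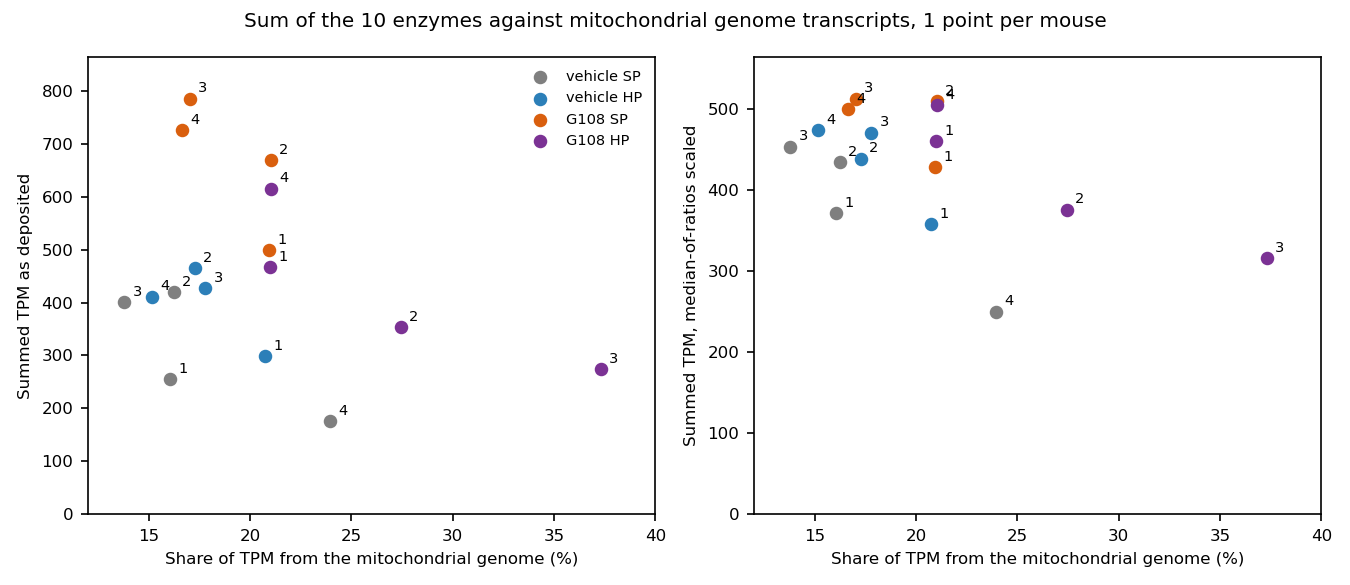
Summed TPM of the 10 enzymes (vertical axis) against the share of TPM from the mitochondrial genome (horizontal axis, %), with 1 point per mouse, colour by group and the mouse number beside it, as deposited (left) and after median-of-ratios scaling (right). On the right the 3 mice above 23% sit at 250, 376 and 316, and the other 13 between 357 and 513.

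The 10 enzymes varied together from mouse to mouse. Over the 16 libraries Pearson r between pairs was 0.916 to 0.992 on TPM, with a median of 0.965, while the median r of all tested genes with the mean of the 10 enzymes was 0.783. All genes of a library share its fixed total. After median-of-ratios scaling the pairs still had r of 0.790 (Cpt2 and Acadm) to 0.983 (Acads and Etfdh), with a median of 0.912, and the median r of all tested genes fell to 0.07. Deviations from group means gave a median of 0.933 after scaling, so that the likeness was not only between groups. All these points share library, depth and scaling factor, and r was not computed without the 3 libraries rich in mitochondrial transcripts.

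The 5 genes outside the set most like the mean of the 10 over the 16 scaled libraries were Sqor (r = 0.986), a mitochondrial sulfide oxidoreductase, Dhrs4 (r = 0.984), a short-chain reductase, Emc10 (r = 0.983), Pttg1ip (r = 0.983) and Sdha (r = 0.978), a subunit of complex II. Of 11829 other tested genes, 556 (4.70%) had r of at least 0.9, so the pattern was shared with many other genes.

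The enzymes did not keep a fixed proportion to each other in every mouse. Etfdh made up 2.33 to 3.73% of the summed TPM in the 14 other mice, 1.35% in vehicle SP mouse 4 and 2.01% in G108 HP mouse 3. Acads made up 6.08% in vehicle SP mouse 4 and 8.69% in G108 HP mouse 3, and 9.60 to 12.5% elsewhere. Cpt2 went the other way, with 13.4% and 13.8% in these mice and 9.58 to 11.7% elsewhere. In these 2 mice Etfdh, Acads and Hadhb took smaller shares than on average over the mice, and Cpt2, Acadl and Acadvl took larger ones. G108 HP mouse 2 and vehicle HP mouse 1 lay on the same side of the average for each of these genes. Etfdh made up 2.50% and 2.33% in them. Vehicle HP mouse 1 was not among the libraries rich in mitochondrial transcripts. Shares within a library do not depend on its scaling.

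**Figure D4:**
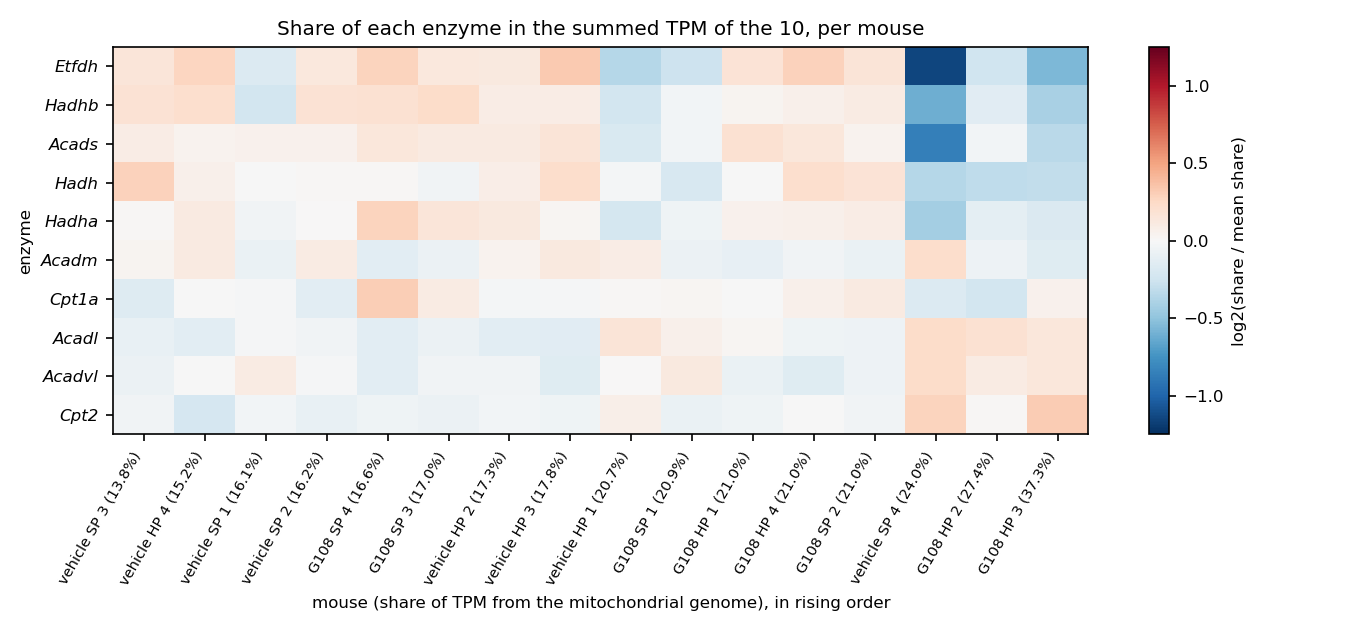
Share of each enzyme (rows) in the summed TPM of the 10, as log2 of the share over its mean across mice (colour, blue below and red above the mean), with the 16 mice in rising order of the share of TPM from the mitochondrial genome (columns, percent in brackets). Vehicle SP mouse 4 and G108 HP mouse 3 show blue cells for Etfdh, Hadhb and Acads and red cells for Cpt2, Acadl and Acadvl. For G108 HP mouse 2 and vehicle HP mouse 1 these genes lie on the same sides of the mean.

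Other genes of fatty acid handling were taken from lists of known members of each step, and G108 against vehicle on SP is given first. Of 12 other mitochondrial beta-oxidation genes 11 were called higher on TPM, with a median difference of 0.80, against the background of 77.0%. Etfa and Etfb, the electron transfer flavoprotein that feeds Etfdh, rose from 83.7 ± 26.9 to 179 ± 19.5 and from 190 ± 14.5 to 306 ± 33.9 TPM (SD, n = 4; limma adjusted p = 0.00179 and 0.00164). Acad10, an acyl-CoA dehydrogenase family member, rose by 0.81 (limma adjusted p = 9.24e-04). With the scaling, limma called 0 of these 12, the median was 0.21, and Etfb was at -0.08. This median lay below that of the 10 enzymes on both scales, and the difference between the lists was not tested.

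Of the 5 other carnitine genes, 4 were tested, Cpt1c being below 1 TPM, and 4 were called higher on SP against the same background. Slc22a5, the carnitine importer, rose by 0.96, Crat, carnitine acetyltransferase, by 0.79 and Cpt1b, the muscle form of CPT1, by 0.57 (limma adjusted p = 2.61e-04, 0.00686 and 0.00819). Scaled differences were 0.26, 0.13 and 0.07, with 0 called. Among 9 genes of fatty acid uptake, binding and activation 6 were called higher, against 77.0% of all tested genes, with Acsl3 at 0.70, Acsl4 at 1.09 and Slc27a4 at 0.93, and with scaling 0 were called and the median was 0.09. Acsl3 and Acsl4 are acyl-CoA synthetases and Slc27a4 is a fatty acid transport protein.

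Of the 3 genes that make and remove malonyl-CoA, 2 were called higher on SP, where 77.0% of all tested genes were. Mlycd, the malonyl-CoA decarboxylase, rose by 0.97 (19.9 ± 6.68 to 38.7 ± 5.48 TPM; SD, n = 4; limma adjusted p = 0.00261), and Acaca, acetyl-CoA carboxylase, by 0.52 (limma adjusted p = 0.0309). Their scaled differences were 0.24 and -0.08, with 0 called. Of 11 peroxisomal beta-oxidation genes 8 were called higher, a count near the same 77.0%. Ehhadh, the peroxisomal bifunctional enzyme, rose by 1.38 (scaled 0.64) and Ech1 by 0.87 (scaled 0.12), and with scaling 0 of the 11 were called.

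Of 7 regulators, 5 were called higher on SP on TPM and 1 after scaling, against 77.0% and 1.29% of all tested genes. This gene was Ppargc1a, the coactivator PGC-1α, which glucagon signalling is known to induce. It had 1.11, 0.634, 0.770 and 0.449 TPM in vehicle SP and 2.43, 3.75, 4.73 and 3.32 TPM in G108 SP, without overlap, and rose by 1.38 (SE 0.16, limma adjusted p = 8.10e-05) and by 0.90 after scaling (limma adjusted p = 0.00280). Ppargc1a averaged 0.741 TPM in vehicle SP and 0.907 in vehicle HP, so it met the filter of 1 TPM only through the G108 groups. With no filter on low values it was still called on SP (limma adjusted p = 3.68e-04). Rxra, a nuclear receptor partner of PPARα, rose by 1.13 (scaled 0.39), and Esrra, which encodes ERRα, by 0.71 (scaled 0.01).

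On HP, Ppargc1a was the only gene of these lists that was called with G108. It had 0.786, 0.967, 0.887 and 0.986 TPM in vehicle HP and 1.77, 2.36, 1.81 and 2.77 TPM in G108 HP, again without overlap. The rise was 0.73 (SE 0.16, limma adjusted p = 0.0338) on TPM and 0.66 (limma adjusted p = 0.0364) after scaling. Ppargc1a met the filter of 1 TPM only through the G108 groups, and with no filter the call on HP was lost (limma adjusted p = 0.0937). The call is close to the threshold: it held in 8 of the 16 TPM fits that left out 1 library, where adjusted p went up to 0.1102 and the estimate stayed between 0.64 and 0.79. It was lost without each of the 4 vehicle HP mice, without G108 HP mouse 2, 3 or 4 and without G108 SP mouse 2, and without the 3 libraries rich in mitochondrial transcripts (limma adjusted p = 0.126). None of the most abundant genes of the other lists passed on HP, with Acaa2, a mitochondrial thiolase, at 0.02, Slc25a20, the carnitine-acylcarnitine carrier, at -0.09, Fabp1, the liver fatty acid binding protein, at -0.01, Mlycd at 0.08 and the peroxisomal thiolase Acaa1b at -0.26. No gene of these lists passed for HP against SP with either treatment or for the interaction in limma. At an unadjusted p under 0.05 the interaction counted 10 of 12 other mitochondrial, 2 of 4 carnitine, 5 of 9 uptake, 1 of 3 malonyl-CoA, 9 of 11 peroxisomal and 3 of 7 regulator genes, all on TPM, where 47.7% of all tested genes were below 0 at that level. After scaling these counts, in either direction, were 2, 0, 0, 0, 2 and 1, beside 832 of all 11839 tested genes in either direction.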

How the data were processed

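Liver RNA was extracted with TRIzol and sequenced, with 1 library per mouse. By the paper and the submitters' processing notes, the authors checked reads with FastQC 0.11.8, aligned them to GRCm38 with HISAT2 2.0.5, and used featureCounts to count reads. The authors deposited TPM, which rest on these counts and on exon lengths. The authors' own tests used DESeq2 1.36.0. Whether counting used the strand is not given in the sources used here. Groups came from the sample records.

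The 11839 genes whose TPM averaged 1 or more entered a limma 3.58.1 fit (R 4.3.3) of log2(TPM + 1), with 1 mean per group over all 16 libraries, a variance trend and Benjamini-Hochberg adjustment over these genes, and the code was tested on simulated data. A gene is called at an adjusted p under 0.05. Differences on log2(TPM + 1) understate the change of low genes. Over genes with a mean of at least 5 TPM, the medians for G108 against vehicle were 0.71 on SP and 0.11 on HP. For HP against SP they were -0.42 with G108 and 0.19 with vehicle, and for the interaction -0.61. Median-of-ratios factors (0.686 to 1.53) came from the 17705 genes above 0 in every library. Reads per library were recovered by taking the smallest step of low values as 1 read, and 98.8% of 138231 low values, those under 20 reads, lay within 0.02 of a whole number. Pearson r between libraries of a group was 0.929 to 0.989, and no pair of libraries held identical values. All 16 columns were used, and the symbols, coordinates and exons came from the GENCODE annotation of GRCm38, with promoter windows from RefSeq. The hepatocyte marker Tf was matched as Trf.

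The 10 enzymes and all lists were chosen with earlier results of these data known. Named are all 10 enzymes, up to 3 called genes per list and comparison with the smallest adjusted p, the most abundant gene of a list with none called, and the 5 genes most correlated with the enzymes, except that 1 gene of the peroxisomal list is not reported here. Chosen after seeing the data were the omission of the 3 libraries with the most mitochondrial TPM, the omission of each library under median-of-ratios scaling, and the values of Ppargc1a in every alternative. The other alternatives were another pseudocount, other filters, TPM rescaled without mitochondrial and Mup genes, voom on recovered reads, array quality weights, a fit of only the groups compared, a replicate block and each library left out.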

Additional observations from a re-analysis of the deposited data

Results flagged for a closer look

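Of 40 sets of 4 mice, 1 for each enzyme and group, 3 held a mouse whose distance to the nearest other mouse was larger, as a share of the range of the group, than Dixon's critical value, which chance meets in about 5% of such sets. Hadhb in vehicle HP mouse 1 was 9.51 TPM, with a distance of 0.837 of the range. Etfdh in the same mouse was 6.96 TPM, with 0.869 of the range. Hadh in G108 SP mouse 1 was 31.7 TPM, with 0.904 of the range. In each case the other 3 mice of the group were higher and close to each other.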

How the results depend on the processing

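The count of enzymes called for G108 against vehicle on SP fell from 10 to 0 with median-of-ratios scaling, with TPM rescaled without mitochondrial and Mup genes, with voom on recovered reads and with median-of-ratios scaling without the 3 libraries with the most mitochondrial TPM. It was 0 in each of the 16 fits that left out 1 library under median-of-ratios scaling. On TPM, leaving out 1 library gave 8 to 10 enzymes in this comparison, 0 to 8 for HP against SP with G108 and 0 to 10 for the interaction. With array quality weights 10 enzymes were called for HP against SP with G108 and 10 for the interaction, where 8502 and 7267 of all genes were called. The cause was not tested. Among all tested genes, calls for G108 against vehicle on SP went from 9185 to 312 with median-of-ratios scaling (153 higher), to 286 with TPM rescaled without mitochondrial and Mup genes (158 higher) and to 335 with voom (170 higher). On HP they went from 132 to 2126 with array quality weights, to 37 with no filter, to 83 with only the groups compared, to 4 without the 3 libraries and to 0 without them after median-of-ratios scaling, and leaving out 1 library gave 0 to 209. The mouse numbers of different groups were not treated as pairs in the main fit. Same-numbered mice had r of -0.58 to 0.53 in their deviations from group means, and 8 of 24 pairs were above 0.1. Differently numbered mice were not compared, so these r cannot tell whether the numbers mark a shared block. With the number as a replicate block, 10 enzymes were called on SP and 0 in the other comparisons, with 8954 and 71 calls among all genes on SP and HP.

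Estimates for G108 against vehicle on HP, all near 0, changed sign often. With median-of-ratios scaling Cpt1a was at -0.10, Acadvl at -0.037 and Acads at -0.12. With TPM rescaled without mitochondrial and Mup genes Cpt1a was at -0.17, Cpt2 at -0.031, Acadvl at -0.11, Acadl at -0.019 and Acads at -0.19. With array quality weights Cpt1a was at -0.14 and Acads at -0.17, and with voom Cpt1a was at -0.11, Acadvl at -0.038 and Acads at -0.13. Without the 3 libraries Acadm was at 0.27, Hadha at 0.47, Hadhb at 0.42, Hadh at 0.44 and Etfdh at 0.54. With this omission after median-of-ratios scaling Hadha was at 0.20, Hadhb at 0.15, Hadh at 0.17 and Etfdh at 0.27. The last setting also changed signs for HP against SP with G108 (Cpt2 0.020, Acadl 0.023, Acadm 0.0028, Acads 0.086, Hadh 0.099 and Etfdh 0.13), for HP against SP with vehicle (Acadvl -0.0046) and for the interaction (Acads 0.073, Hadh 0.069 and Etfdh 0.027). Leaving out 1 library gave, on HP, -0.19 to 0.18 for Cpt1a, -0.00034 to 0.27 for Cpt2, -0.048 to 0.24 for Acadvl, -0.34 to 0.077 for Acadm, -0.23 to 0.30 for Acads, -0.23 to 0.22 for Hadha, -0.33 to 0.17 for Hadhb, -0.43 to 0.11 for Hadh and -0.41 to 0.20 for Etfdh. The SP estimates kept their direction in every alternative run, and so did the interaction estimates apart from those 3. The call of Ppargc1a on HP was also lost with no filter (limma adjusted p = 0.0937) and with the replicate block (0.0892). An interaction from only the groups compared was not run, since it needs all 4.

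Reads per enzyme were many in every library, so that the spread between 4 mice limits precision more than depth. TPM carry no total amount of RNA, and which scaling comes closer to amounts per cell was not tested.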
